A study of Mus musculus with 3 samples.

Results

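Cxcl13, Cxcr5, Bcl6 and Sh2d1a were followed through the leukocytes of the inflamed sciatic nerve. These 4 genes, of 17168 in the deposited table of unique molecular identifier (UMI) counts, were chosen by name, with their levels across cell types already known, because together they are the chemokine, the receptor and the follicular helper genes of B cell follicles. Their levels across cell types are therefore given as a description, with no test. The data are single-cell RNA profiles of CD45+ cells from nerves of NOD.AIRE GW/+ mice at 15 weeks, in 3 libraries with 6033, 2333 and 3274 cells. NOD is an autoimmune-prone strain, and Aire, altered on 1 of its copies here, lets the thymus display tissue antigens to developing T cells. All 3 libraries are of this genotype; wild-type nerves were not analysed here, and no value measures an effect of genotype. The labels do not say whether a library is 1 mouse or a pool, so spread between mice cannot be read from the p-values. The tests compare cells within a library and weigh that difference against counting error and against how much it varied between libraries.

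CXCL13 is the chemokine that draws B cells and follicular helper T cells, through the receptor CXCR5, into the follicles of lymphoid organs, where stromal and follicular dendritic cells make it. BCL6 is the transcription repressor that directs the follicular helper fate and opposes BLIMP-1, the product of Prdm1. Sh2d1a encodes SAP, the adaptor that carries signals from SLAM-family receptors and lets T cells hold on to B cells.

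In mm10 (GRCm38), with the GENCODE M21 annotation, Cxcl13 lies on the plus strand at chr5:95956951-95961068. Cxcr5 lies on the minus strand at chr9:44511787-44561877. Bcl6 lies on the minus strand at chr16:23965052-23988852. Sh2d1a lies on the plus strand at chrX:42502453-42529330. All 4 are protein-coding genes.

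The RefSeq promoter table, on build GRCm38.p6, held Cxcl13 with 1 start and Bcl6 with 2. The 250 bases before each start are printed here, 5′ to 3′ on the gene's strand, because these are the sequences in which the letters of motifs of inflammatory and cytokine-driven factors can be looked for. Capitals mark the letters of the NF-kB-like motif (GGG and CC with any 5 bases between) and of TTCNNNGAA (STAT-like), on either strand.
Cxcl13, chr5:95956689-95956938: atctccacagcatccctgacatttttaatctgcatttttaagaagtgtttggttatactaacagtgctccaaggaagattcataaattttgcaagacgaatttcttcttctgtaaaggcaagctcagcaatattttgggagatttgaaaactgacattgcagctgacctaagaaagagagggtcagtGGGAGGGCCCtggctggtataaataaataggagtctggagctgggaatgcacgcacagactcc
Bcl6, upstream start, chr16:23988853-23989102: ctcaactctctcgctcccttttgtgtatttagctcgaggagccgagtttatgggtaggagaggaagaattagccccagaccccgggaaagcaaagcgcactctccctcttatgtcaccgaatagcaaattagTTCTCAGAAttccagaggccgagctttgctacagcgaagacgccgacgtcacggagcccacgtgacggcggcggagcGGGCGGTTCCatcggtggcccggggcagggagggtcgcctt
Bcl6, start within the gene, chr16:23981284-23981533: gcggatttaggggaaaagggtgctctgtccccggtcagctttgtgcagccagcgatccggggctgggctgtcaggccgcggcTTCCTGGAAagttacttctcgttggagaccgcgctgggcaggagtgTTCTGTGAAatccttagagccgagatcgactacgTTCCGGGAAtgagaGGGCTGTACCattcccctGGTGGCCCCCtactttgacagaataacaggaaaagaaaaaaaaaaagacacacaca
Each window searched held 300 bases, the 250 printed and the 50 after the start. Cxcl13 held 1 match to the NF-kB-like motif, 1 to CANNTG (the E-box) and 0 to TTCNNNGAA. The start within Bcl6 held 3 matches to TTCNNNGAA, 2 to the NF-kB-like motif and 0 to CANNTG. The upstream start of Bcl6 held 1 match to each of the 3 motifs. Of 32851 RefSeq promoters of the same length, 50.8% hold the NF-kB-like motif, 8.30% hold TTCNNNGAA and 72.3% hold CANNTG. A match is a stretch of letters and was not tied to any measurement here.

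Cell classes are the 10 names the authors gave to 14 clusters. Totals were 22587246, 11398628 and 13791264 UMIs in libraries 1, 2 and 3, with medians of 3011, 4156 and 3713 UMIs per cell. Libraries 1 and 2 were read from the 3′ end and library 3 from the 5′ end, so read end and library cannot be told apart. Libraries 1 and 2 shared 6 cell barcodes and the other pairs shared 0. The 5 B cell markers summed to between 3406 and 5266 counts per 1000000 UMIs (CPM) in the class B, against at most 47.4 in Mac. Macrophage markers summed to 17333, 25999 and 10077 CPM in Mac. In the class cDC, of conventional dendritic cells, they summed to 569, 841 and 1378 CPM. The conventional dendritic cell markers summed to 331, 432 and 507 CPM in cDC and to 355, 237 and 702 CPM in the class pDC. T cell markers reached 934 CPM in Mac and 897 CPM in B, both in library 3. Intervals given for shares are exact 95% binomial intervals and cover counting error only.

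Among the CD45+ cells profiled, the ligand, Cxcl13, was mainly a macrophage transcript; stromal cells were not profiled. In the class Mac its level was 3262, 1348 and 175 CPM in libraries 1, 2 and 3, or 1595 ± 1558 CPM (SD, n = 3). Library 1 was the highest and library 3 the lowest, and the spread between libraries was as large as the mean. Without library 1 the mean was 762 CPM. The name of library 1 in the deposited cell table carries the suffix pos, whose meaning the labels do not give. In no other class was it above 35.7 CPM in any library. CD4 T cells followed with 35.3, 1.33 and 7.73 CPM, and CD8 T cells with 35.7, 1.16 and 5.24 CPM. These 2 T cell classes did not differ beyond their spread. Macrophages, 581 of 11640 cells, held 95.1%, 98.8% and 72.8% of all Cxcl13 UMIs of their libraries. Plasma cells held 0 of them.

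**Figure D1:**
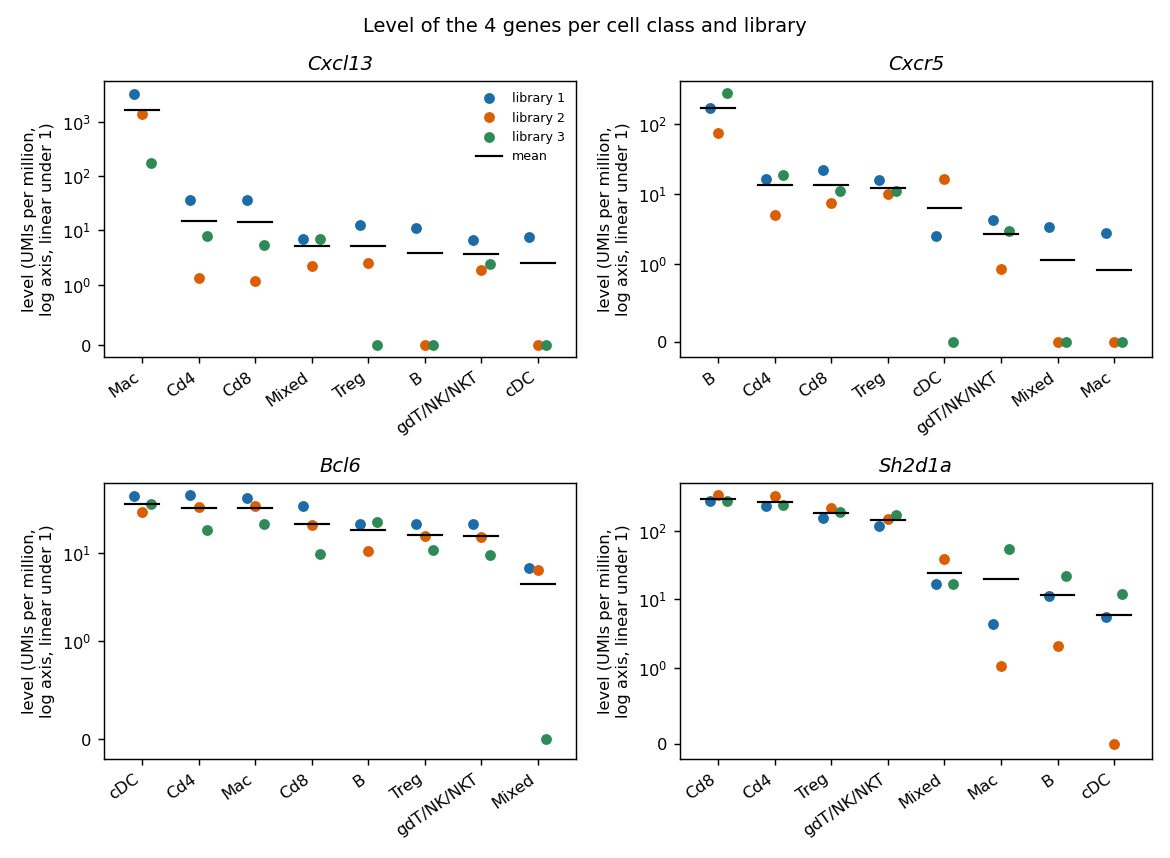
Level of each gene (CPM, log axis that is linear under 1) in the 8 classes that hold 20 or more cells in each library, ordered by mean; dots are libraries and bars are means over 3 libraries. Cxcl13 stands at 175 to 3262 in Mac, Cxcr5 is highest in B, Sh2d1a is highest in Cd8 and Cd4, and Bcl6 is spread over most classes.

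Within the class, Cxcl13 was a property of a minority of macrophages that carried much of it. At least 1 UMI was found in 122 of 367, 28 of 106 and 11 of 108 macrophages. At least 10 UMIs were found in 95 cells of library 1 (25.9%, interval 21.5 to 30.7%), 19 cells of library 2 (17.9%, interval 11.2 to 26.6%) and 5 cells of library 3 (4.63%, interval 1.52 to 10.5%). Those cells held 98.9%, 97.1% and 91.9% of the macrophage Cxcl13 UMIs. Between no transcript and plenty there were few cells: 420 macrophages had 0 UMIs, 19 had 1, 23 had 2 to 9, 91 had 10 to 99 and 28 had 100 or more. The highest cell carried 470 Cxcl13 UMIs, 5.48% of all its UMIs. In libraries 1 and 2 depth was similar in both: Cxcl13-positive macrophages had medians of 7136 and 9282 UMIs and negative ones 7074 and 9611. In library 3 the positive cells were shallow, with a median of 1986 UMIs against 7630. The median percent of mitochondrial UMIs was 4.2, 3.62 and 0.705 in positive cells and 2.88, 2.44 and 1.02 in negative cells, higher with Cxcl13 in libraries 1 and 2; its part in the results on these cells was not tested.

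**Figure D2:**
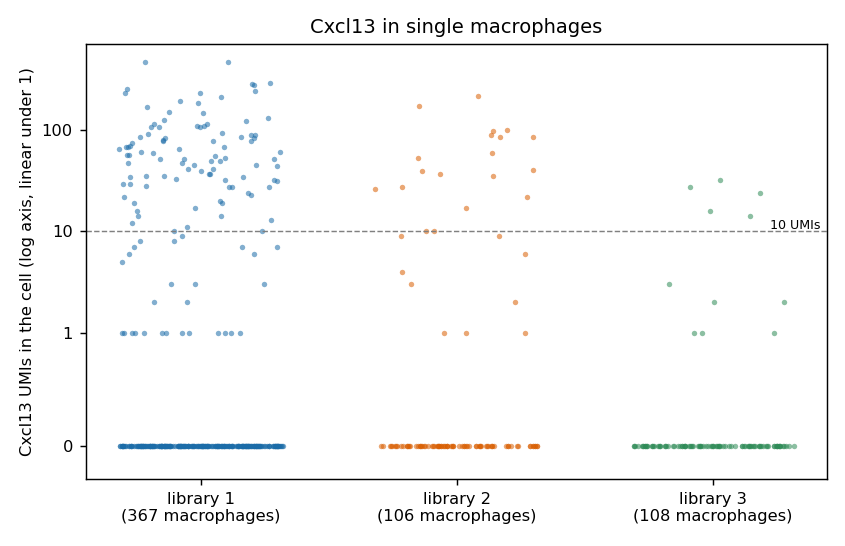
Cxcl13 UMIs in each macrophage (log axis, linear under 1) of the 3 libraries; each dot is a cell, spread sideways at random within its library. Most cells lie at 0, and above the dashed line at 10 UMIs lie 95, 19 and 5 cells of libraries 1, 2 and 3.

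After thinning every cell to 1000 UMIs, 19.0% ± 10.9 of macrophages kept a Cxcl13 UMI (SD, n = 3), against 0.905% ± 0.856 of CD4 T cells; without thinning the shares were 23.3% and 1.96%. Outside macrophages 10 cells held 5 or more Cxcl13 UMIs. By label, 7 were CD8 T cells, all of cluster 4, and 3 were CD4 T cells. Of the 10, 8 came from library 1 and 2 from library 3, 7 held no UMI of the macrophage markers, and 1 was called a doublet. The CD4 cell with 84 Cxcl13 UMIs had 1 macrophage marker UMI and 27 UMIs of T cell receptor complex genes. These cells are single observations, named after their values were seen. The remaining signal in T cells was mostly single UMIs: 80 of 93 positive CD4 cells and 41 of 56 positive CD8 cells had 1. CD4 T cells with under 5 Cxcl13 UMIs had 0.115, 0.0421 and 0.160 Cxcl13 UMIs per UMI of Lyz2, C1qa, C1qb and Apoe together in libraries 1, 2 and 3, against 0.0956, 0.0187 and 0.0179 in the macrophages. The ratio was higher in these CD4 T cells in each library. B cells had 0.0123 in library 1 and no Cxcl13 UMI in the others.

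Macrophages with a Cxcl13 UMI were then compared with those without, within each library, with edgeR's quasi-likelihood test and Benjamini-Hochberg adjustment over all genes tested. C1q genes and Ccl8 were higher in the positive cells, and most of the tested monocyte-derived genes were lower. Of 5789 genes, 115 (1.99%) were higher and 109 (1.88%) were lower in the positive cells at an adjusted p under 0.05, or 3.87% in all. With 10 or more UMIs as the split, added after seeing the data and with 5 positive cells in library 3, 118 genes (2.1%) were higher and 120 (2.13%) lower, or 4.23% in all. Cxcl13 itself, which made the split, was not tested. Of the 10 endoneurial or resident macrophage genes, 7 rose and 0 fell, with a median log2 fold change of 1.81. Of 8 tested monocyte-derived macrophage genes, 0 rose and 7 fell, with a median of -2.55. The median over all genes was -0.03.

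Among the resident genes, C1qa, a chain of the first complement component, stood at 9089, 9759 and 4077 CPM in positive cells and 2222, 4883 and 77.5 CPM in negative cells. It was higher in each library, though positive cells of library 3 lay below negative cells of library 2 (log2 fold change 2.73 ± 0.53 SE, edgeR adjusted p = 0.00211). C1qb rose by 2.44 ± 0.51 and C1qc by 2.42 ± 0.46 on the log2 scale. The membrane protein gene Ms4a7 rose by 2.41 ± 0.36, and Tmem119, known from microglia, by 2.05 ± 0.36. Olfml3 rose by 1.51 ± 0.29. Apoe, which carries lipid, rose by 1.58 ± 0.42 (edgeR adjusted p = 0.0307). The fractalkine receptor Cx3cr1 (0.59 ± 0.27), Trem2 (0.52 ± 0.27) and Cst3 (0.44 ± 0.31) did not pass the test.

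The monocyte genes were lower in the same cells. Ccr2, the receptor that brings monocytes into tissue, stood at 69.7, 27.5 and 303 CPM in positive cells and 581, 262 and 807 CPM in negative cells (log2 fold change -2.58 ± 0.28, edgeR adjusted p = 4.04e-06). Library 3 had the highest level in both arms, so that the arms overlapped across libraries but not within one. Ly6c2, the marker of inflammatory monocytes, fell by 2.15 ± 0.39, Plac8 by 2.58 ± 0.36 and the chitinase-like Chil3 fell by 3.15 ± 0.42. Fn1, Thbs1 and S100a8 also fell. F13a1, a coagulation factor gene placed here in the epineurial list, fell by 4.22 ± 0.35 and Mrc1, the mannose receptor of the same list, rose by 1.65 ± 0.40 in 2 of 3 libraries. In library 1, 91 of 122 positive macrophages and 41 of 245 negative ones had no UMI of Ly6c2, Ccr2 or S100a8. In library 2 the counts were 18 of 28 and 31 of 78, and in library 3, 7 of 11 and 5 of 97. Among only those cells, a comparison added after the data were seen, 9 of 2279 genes were called (0.395%): Ccl8 remained higher (2.49, adjusted p = 0.00873) and so did Cd81 (2.99, adjusted p = 0.00163), while C1qa was at 1.04 (adjusted p = 0.334).

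Other chemokines moved with Cxcl13 in both directions. Ccl8, a macrophage chemokine, stood at 4753, 6055 and 6547 CPM in positive cells and 244, 2065 and 34.9 CPM in negative cells. The arms did not overlap, as was the case for 11.7% of all genes tested (log2 fold change 4.32 ± 0.65, edgeR adjusted p = 0.000164). The monocyte chemokines Ccl7 and Ccl12 rose by 1.67 ± 0.36 and 1.25 ± 0.22. Ccl6 fell by 2.20 ± 0.29, Ccl9 by 2.54 ± 0.36 and the neutrophil chemokine Cxcl2 by 1.01 ± 0.25. Of 20 tested cytokines and mediators, 3 rose and 3 fell, with a median log2 fold change of -0.02. Tnf (-0.56 ± 0.29), Il1b (-0.33 ± 0.29) and the interferon-induced Cxcl9 (0.52 ± 0.29) and Cxcl10 (0.50 ± 0.28) did not pass the test.

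Genes with known roles toward B cells and T cells were among those that rose. Tnfsf13b, which encodes the B cell survival factor BAFF, stood at 69.7, 82.4 and 69.9 CPM in positive cells and 14.2, 23.7 and 6.08 CPM in negative cells (log2 fold change 2.36 ± 0.32, edgeR adjusted p = 7.29e-05). Every positive level was above every negative one, as for 11.7% of all genes tested. The positive cells of library 3 held 43044 UMIs of all genes together, so their level rests on few UMIs. Tnfsf13b was the only one of 7 tested genes of the lymphoid tissue list that was called. Vcam1, an adhesion molecule that follicular dendritic cells also carry, stood at 250, 341 and 280 CPM against 47.4, 206 and 13.7 CPM (2.02 ± 0.33, edgeR adjusted p = 0.000462). The other genes of the follicular dendritic and stromal list were too low to test: Cr2 had 0 UMIs and Col1a1 had 1 UMI in the whole class. Of 8 antigen presentation genes, H2-Eb1 (1.36 ± 0.33) and the costimulator Cd86 (0.81 ± 0.22) rose, and the median of the list was 0.88. Of 9 tested genes of the SAP and SLAM family, 3 rose: Slamf9 (1.66 ± 0.28), Slamf7 (1.56 ± 0.25, in 2 of 3 libraries) and Slamf6 (1.01 ± 0.28). Bcl6 did not differ beyond its error in these macrophages (0.14 ± 0.34, edgeR adjusted p = 0.925). It stood at 37.2, 47.1 and 0 CPM in positive cells and at 44.4, 29.6 and 22.8 CPM in negative cells.

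Beyond the lists the largest rises were Cd81, a tetraspanin, at 3.36 ± 0.29, Chek2, Tspan3, Cd63, Cd72, Cadm1, Hpgds and Zmynd15, all between 2.09 and 2.38 after Cd81. Cd72, an inhibitory receptor that B cells share, stood at 653, 663 and 606 CPM against 97.1, 302 and 60.8 CPM. The largest falls were Ms4a8a, the scavenger receptor Cd36, Adam8, Cd177, the leukotriene receptor Ltb4r1, Gpr141, Ifitm6 and Pira2, with Cd177 at -3.11 and Pira2 at -2.64. For Cd36 the positive cells held 1 UMI against 82, a ratio of levels of 0.0326 with a counting interval of 0.000816 to 0.187. Markers of T cells summed to 92.8, 54.7 and 1905 CPM in positive cells and 147, 14.8 and 871 CPM in negative cells, so that they were higher with Cxcl13 in libraries 2 and 3. Without cells that held T or B cell markers, which left libraries 1 and 2, 326 genes were called. Without library 1, 0 genes passed (379 at an unadjusted p under 0.05), and without library 3, which gave 11 positive cells, 379 passed. Of the 41 named genes called in this comparison, 0 kept the call without library 1, 38 without library 2 and 41 without library 3. With equal weight for every cell in limma 0 genes passed (472 at an unadjusted p under 0.05) and with DESeq2 78 did.

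**Figure D3:**
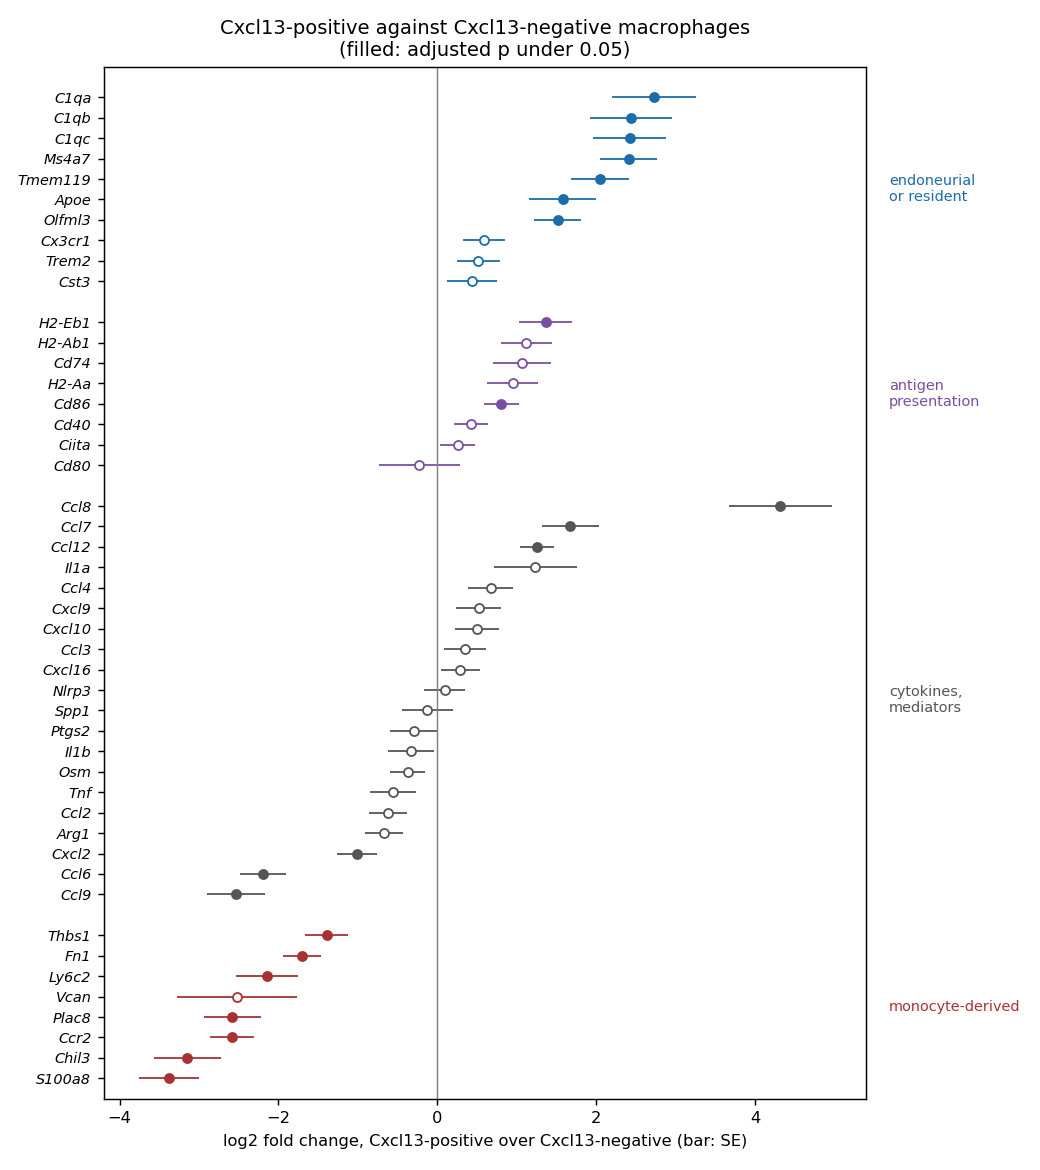
Log2 fold change (Cxcl13-positive over Cxcl13-negative macrophages, bars are the SE) of the tested genes of 4 lists, filled where the edgeR adjusted p was under 0.05. All 7 called resident genes lie right of 0 and all 7 called monocyte-derived genes lie left of it, and the mediators run from Ccl9 at -2.54 to Ccl8 at 4.32.

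By its pattern over 24 sums of 8 classes in 3 libraries, Cxcl13 was most like Chil1 (Pearson r = 0.910), Ccl8 (0.907), C1qb (0.898), Apoc1 (0.894) and Ms4a7 (0.891). The sums share libraries and depth, so r is a description.

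The receptor, Cxcr5, was a B cell transcript. B cells stood at 167, 73.1 and 272 CPM, or 170 ± 99.3 CPM (SD, n = 3). CD4 T cells stood at 16.5, 5.0 and 18.8 CPM (13.4 ± 7.40), CD8 T cells at 21.7, 7.36 and 11.1 CPM (13.4 ± 7.44) and Tregs at 16.0, 9.93 and 10.9 CPM (12.3 ± 3.25). The lowest B cell level was above the highest of any other class, and the 3 T cell classes did not differ beyond their spread. Conventional dendritic cells followed with 6.29 ± 8.81 CPM and the class gdT/NK/NKT with 2.70 ± 1.65 CPM. Macrophages, which made the ligand, had 7 Cxcr5 UMIs in library 1 and 0 in libraries 2 and 3, and plasma cells had 0 in all. B cells held 77.6%, 39.8% and 80.8% of all Cxcr5 UMIs. After thinning to 1000 UMIs, 15.2% ± 8.39 of B cells kept a Cxcr5 UMI, 1.26% ± 0.736 of CD4 T cells, 1.30% ± 0.517 of Tregs and 0.103% ± 0.178 of macrophages. Unthinned, the shares were 40.7%, 3.10%, 3.75% and 0.545%.

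In T cells there were more Cxcr5 UMIs per B cell marker UMI than in B cells. B cells had 0.0540, 0.0228 and 0.0561 Cxcr5 UMIs per UMI of Cd79a, Cd79b and Ms4a1 together. CD4 T cells had 0.718, 7.50 and 1.44, and CD8 T cells 0.903, 1.27 and 0.600. The values of library 2 rest on few UMIs: 15 of Cxcr5 over 2 of the markers in CD4 T cells, and 19 over 15 in CD8 T cells. Macrophages of library 1 had 0.0636, near the value in B cells. Among CD4 cells the receptor stood at 18.9, 6.43 and 22.5 CPM in cluster 0 and at 6.11, 0 and 26.0 CPM in cluster 5, which held 14 of the 46 Cxcr5-positive CD4 cells of library 3. Cells of cluster 5 were shallow, with medians of 846, 975 and 872 UMIs. Its 6.11 CPM rests on 2 UMIs, and its count of 0 in library 2 allows up to 40.5 CPM. In cluster 6 the receptor was found in 3 of 242 cells of library 1 and in 0 of 178 and 0 of 172 cells of libraries 2 and 3. A count of 0 allows up to 5.06 and 5.22 CPM there, 3 counts of the total.

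The genes with the pattern most like Cxcr5 over the same 24 sums were Pou2af1 (r = 0.860), Amigo2 (0.853), Col6a4 (0.842), Fcrl1 (0.827) and Dtx1 (0.816). Rgs13, a germinal centre gene, had 3 UMIs in the whole series, all in B cells. Pax5 stood at 133 CPM and Cd38 at 191 CPM in B cells. These levels of Pax5 and Cd38 are not read here as marks of germinal centre cells. Whether any B cells were germinal centre cells was not tested. Cr2 and Fcer2a, complement and IgE receptors of mature B cells, stood at 67.6 and 118 CPM in B cells.

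The adaptor, Sh2d1a, was shared by CD8 T cells, CD4 T cells, Tregs and the class gdT/NK/NKT, and was low in the class Mixed. CD8 T cells stood at 274, 335 and 277 CPM (295 ± 34.3) and CD4 T cells at 231, 325 and 237 CPM (264 ± 52.6). Tregs stood at 157, 214 and 187 CPM (186 ± 28.8) and the class gdT/NK/NKT at 120, 147 and 174 CPM (147 ± 27.3). CD8 and CD4 T cells overlapped, as did Tregs and gdT/NK/NKT, while in these sums every CD4 value was above every Treg value. How many of all genes separate CD4 T cells and Tregs so was not counted. At 1000 UMIs per cell the 2 classes overlapped. There 17.1%, 19.9% and 16.8% of CD4 T cells kept an Sh2d1a UMI, against 12.7%, 17.6% and 17.1% of Tregs. The class Mixed had 24.3 ± 12.7 CPM of Sh2d1a, although its T cell markers summed to 3768, 5154 and 5209 CPM. In gdT/NK/NKT those markers summed to 3319, 5305 and 2764 CPM. B cells had 11.7 ± 9.93 CPM of Sh2d1a. Macrophages had 4.35, 1.07 and 54.2 CPM. That high value of library 3 came with 934 CPM of T cell markers in its macrophages, against 129 and 25.8 CPM in libraries 1 and 2; its part in the Sh2d1a level was not tested. Without library 3 the mean in macrophages was 2.71 CPM. Within CD4 T cells cluster 0 had 310 ± 59.7 CPM, cluster 6 had 154 ± 8.07 CPM and cluster 5 had 80.0 ± 49.4 CPM. The highest cluster was 4, of CD8 T cells, at 348 ± 31.4 CPM. At 1000 UMIs per cell 24.3% ± 2.78 of CD8 T cells, 17.9% ± 1.73 of CD4 T cells and 0.796% ± 0.712 of B cells kept an Sh2d1a UMI. Its nearest patterns were Cd27 (r = 0.949), Nkg7 (0.947), Ms4a4b (0.946), Rgs16 (0.932) and Cd3d (0.930).

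Bcl6 had no class of its own. Conventional dendritic cells stood at 44.3, 29.4 and 35.6 CPM (36.5 ± 7.49), CD4 T cells at 45.7, 33.7 and 18.5 CPM (32.6 ± 13.6) and macrophages at 41.9, 34.4 and 21.4 CPM (32.6 ± 10.4). These 3 did not differ beyond their spread. CD8 T cells had 21.5 ± 12, B cells 18.2 ± 6.70, Tregs 16.0 ± 5.19, gdT/NK/NKT 15.5 ± 6.04 and Mixed 4.42 ± 3.83 CPM. In the T cell classes and macrophages library 3 was the lowest each time. Among CD4 clusters it stood at 50.8, 41.6 and 21.9 CPM in cluster 0 and at 11.5, 5.06 and 6.96 CPM in cluster 6, with no overlap. The cluster 6 values rest on 7, 3 and 4 UMIs, and the clusters were drawn from the same counts. How many of all genes separate these clusters so was not counted. At 1000 UMIs per cell 3.43% ± 0.865 of conventional dendritic cells and 2.83% ± 1.31 of CD4 T cells kept a Bcl6 UMI. The nearest patterns were those of Tmem170b (r = 0.875), Borcs7 (0.825), Rars (0.817), Slc35f6 (0.811) and Nf1 (0.778). Between the 4 genes r ran from -0.299 (Cxcl13 and Cxcr5) to 0.278 (Cxcl13 and Bcl6).

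Cells with the receptor were next compared with cells without it in the same class. Cxcr5 was found in 69 of 1784, 13 of 784 and 46 of 1222 CD4 T cells. Of these 128 cells, 75 also had Sh2d1a (58.6%), against 32.1% of the cells without Cxcr5. Bcl6 was found in 20 of them (15.6%), against 7.29%. The receptor-positive CD4 cells were deeper, with medians of 3883, 4533 and 3812 UMIs against 2340, 3463 and 1871. All 3 genes were found together in 14 CD4 T cells, 22 CD8 T cells, 4 Tregs and 4 B cells. In CD8 T cells Bcl6 was found in 31 of 125 cells with Cxcr5 (24.8%) and in 7.28% of those without. By library the CD8 shares were 30.4%, 20.0% and 12.9% with Cxcr5 and 8.70%, 8.52% and 4.01% without. The CD8 cells with Cxcr5 were deeper in libraries 1 and 3 (medians of 3963 and 5220 UMIs against 3362 and 4736) and shallower in library 2 (3936 against 4886). B cell markers were found in 11.4%, 6.67% and 12.9% of them and in 6.94%, 2.08% and 3.51% of the others; the part of depth and of these markers was not tested. Sh2d1a was found in 67.1%, 53.3% and 74.2% of CD8 cells with Cxcr5 and in 54.7%, 70.3% and 61.1% of those without, lower with Cxcr5 in library 2.

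**Figure D4:**
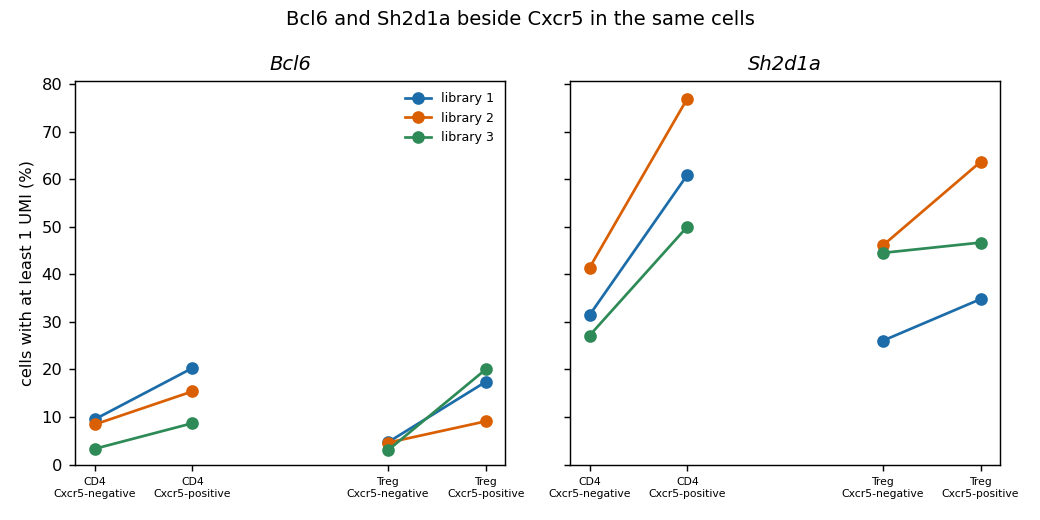
Share of cells (percent, not thinned) with a UMI of Bcl6 or Sh2d1a among Cxcr5-negative and Cxcr5-positive cells of the classes Cd4 and Treg; each line joins the 2 arms of a library. All 12 lines rise toward the Cxcr5-positive cells, which in Cd4 also had more UMIs per cell. In Treg the positive cells were deeper in libraries 2 and 3 (medians of 3845 and 3988 UMIs against 3415 and 3516). They were shallower in library 1 (2002 against 2300.5).

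In CD4 T cells the level of Sh2d1a in CPM was higher with Cxcr5. It stood at 351, 650 and 466 CPM in positive cells and 222, 318 and 223 CPM in negative cells, with no overlap (log2 fold change 0.89 ± 0.15, edgeR adjusted p = 2.02e-06). Within cluster 0 alone it was 0.60 (adjusted p = 0.0443). Without library 1 it was 0.97 (adjusted p = 0.0535), without library 3 it was 0.75 (adjusted p = 0.102), and after thinning cells to 2000 UMIs, which left 29 and 14 positive cells of libraries 1 and 3, it was 0.06 (adjusted p = 0.996). Bcl6 stood at 51.0, 46.4 and 45.5 CPM in positive cells and 45.3, 33.4 and 16.8 CPM in negative cells. Every positive value was above every negative one, as for 9.33% of all genes tested, but the difference did not pass the test (0.55 ± 0.35, edgeR adjusted p = 0.657), and after thinning it was at -0.94 (adjusted p = 0.996). Cxcl13 did not pass either (-0.24 ± 0.55, edgeR adjusted p = 0.948).

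Of 8418 genes, 39 (0.463%) were higher and 96 (1.14%) were lower in Cxcr5-positive CD4 T cells, or 1.6% in all. The falls took in effector and tissue-homing genes, and the follicular helper list as a whole did not move up. Of its 23 tested genes 1 rose and 3 fell, with a median log2 fold change of -0.18, against -0.04 over all genes. The one that rose was Sostdc1, a secreted inhibitor known from follicular helper cells, at 51.0, 201 and 119 CPM against 27.7, 44.6 and 11.1 CPM (1.98 ± 0.30, edgeR adjusted p = 1.21e-08); without library 3 it was 1.37 (adjusted p = 0.0742). The transcription factor Maf (-1.09 ± 0.17), the inhibitory receptor Ctla4 (-0.78 ± 0.17) and the costimulator Icos (-0.59 ± 0.17) fell. The helper cytokine Il21 (0.26 ± 0.20), Pdcd1 (-0.47 ± 0.18), Tox2 (0.69 ± 0.29), Batf (0.50 ± 0.17), Cd200 (0.45 ± 0.15) and Tcf7 (0.24 ± 0.18) did not pass the test. Within cluster 0, where 11 of 7362 genes were called higher (0.149%) and 32 lower (0.435%), Sostdc1 rose by 1.53, and Maf, Ctla4 and Icos did not pass.

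Genes that oppose the follicular fate were lower. Of 13 tested, 0 rose and 6 fell, with a median of -0.75, and within cluster 0 5 of 12 fell. Prdm1 stood at 9.57, 0 and 11.4 CPM in positive cells and 45.6, 42.2 and 66.5 CPM in negative cells (-2.48 ± 0.51, edgeR adjusted p = 0.000197), and within cluster 0 it was at -3.60 (adjusted p = 0.0572). Without library 1 or 3 it missed the threshold (adjusted p = 0.0591 and 0.0703). Il7r, the interleukin 7 receptor, stood at 268, 248 and 324 CPM against 539, 536 and 583 CPM (-0.95 ± 0.17, edgeR adjusted p = 1.01e-05), and fell within cluster 0 too (-1.29, adjusted p = 2.13e-05). S1pr1, the receptor for exit from tissue, fell by 0.75 ± 0.18, and Selplg, the selectin ligand, by 1.08 ± 0.19. The chemokine Ccl5 fell by 1.78 ± 0.18. Gzmb had 3 UMIs in positive cells against 599, a ratio of levels of 0.0923 with a counting interval of 0.0190 to 0.271.

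The list of peripheral helper traits, homing and cytokine genes of helper cells outside follicles, gave 0 rises and 5 falls among 7 tested, with a median of -1.70. Cxcr6 stood at 31.9, 15.5 and 216 CPM against 252, 214 and 665 CPM (-2.11 ± 0.21, edgeR adjusted p = 1.66e-19). Ccr2 fell by 2.34 ± 0.27, Il10 by 1.70 ± 0.25 and Ifng by 0.97 ± 0.18. Within cluster 0, Cxcr6 (-2.23, adjusted p = 4.58e-05) and Ccr2 (-2.26, adjusted p = 0.00171) still fell, Ifng (-0.76, adjusted p = 0.262) did not pass, and Il10 turned to 0.88 (adjusted p = 0.616). The T cell chemokines Ccl4 and Ccl3 were also called lower, and Ccl4 fell by 2.91 ± 0.25. Ccl3 had 2 UMIs in positive cells against 1413, a ratio of levels of 0.0261 with a counting interval of 0.00316 to 0.0944.

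Of 8 tested genes of the SAP and SLAM family, 0 rose and 1 fell: Slamf1 by 1.59 ± 0.32. Slamf6, a receptor that signals through SAP, was at 0.16 ± 0.16 (edgeR adjusted p = 0.844). In the lymphoid tissue list Tnfsf11, which encodes RANK ligand, rose by 0.78 ± 0.16, the 1 call among 10 tested, and was at -0.29 after thinning. Lta (0.01 ± 0.30) and Ltb (-0.18 ± 0.16), the lymphotoxin genes, did not pass. Outside the lists the largest rises were Pdzk1ip1 (3.89 ± 0.70), Ppic, Nrgn (1.86 ± 0.18), Fcrl1, Cd81, Plaur, Fgfr1op and Cd83. Nrgn, a calmodulin-binding protein gene, stood at 258, 696 and 153 CPM against 128, 98.8 and 23.2 CPM. The largest falls were Camk2n1, Gna15, Lilr4b, Neb, Sap30, the ectonucleotidase Entpd1, Kctd12 and Fgl2, with Entpd1 at -2.25 and Fgl2 at -2.09. Camk2n1 and Gna15 had 2 UMIs each in positive cells, with ratios of levels of 0.0878 (counting interval 0.0106 to 0.319) and 0.116 (0.0140 to 0.424). Of the 39 named genes called in this comparison, 19 kept the call without library 1, 37 without library 2 and 19 without library 3. Whichever library was left out, 13 kept it. Thinning left libraries 1 and 3. There 36 of these genes had a value: 4 kept the call, 30 were weaker and 2 turned sign. In cluster 0 alone 17 of 37 kept it, with DESeq2 14 of 30 and with equal cells in limma 7 of 39. Without pairing the arms of a library 1 of 39 kept it. Without B cell marker cells 33 of 39 kept it, without doublets 36 of 39, without cluster 5 36 of 38 and without a filter on low counts 37 of 39.

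Antigen presentation genes rose with Cxcr5 in CD4 T cells, 3 of 5 tested, and B cell markers moved with them. Cd74, the invariant chain, stood at 434, 30.9 and 392 CPM in positive cells and 128, 17.4 and 172 CPM in negative cells (1.55 ± 0.16, edgeR adjusted p = 6.54e-18), H2-Aa rose by 1.08 ± 0.23 and H2-Eb1 by 0.82 ± 0.24, each in 2 of 3 libraries. The 5 B cell markers summed to 112, 0 and 39.8 CPM in positive cells and 24.3, 0.681 and 12.9 CPM in negative cells. Without the cells that held a B cell marker, where 32 genes (0.38%) were higher and 86 (1.02%) lower, or 1.4% in all, Cd74 was at 0.01 (adjusted p = 0.999), H2-Aa at -1.27 (adjusted p = 0.0731), H2-Eb1 at -0.47 (adjusted p = 0.740) and Fcrl1 at 1.36 (adjusted p = 0.118), while Sh2d1a was at 0.95 (adjusted p = 9.24e-07). NK cell markers summed to 147, 108 and 415 CPM in positive cells and 404, 418 and 1002 CPM in negative cells.

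**Figure D5:**
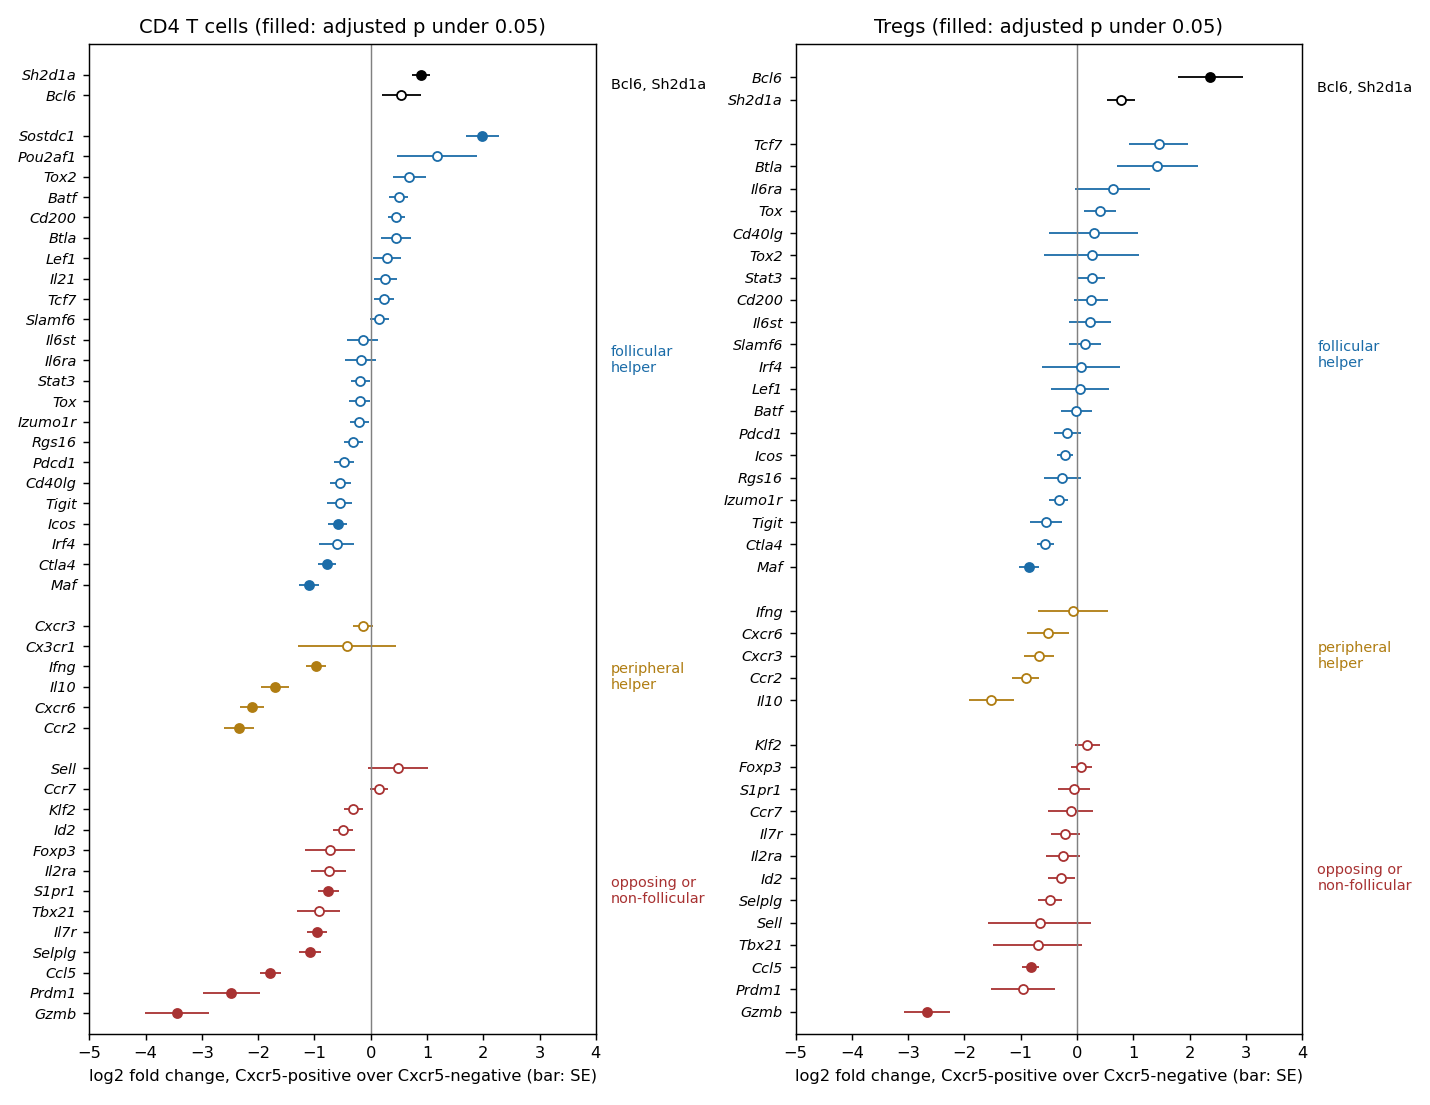
Log2 fold change (Cxcr5-positive over Cxcr5-negative cells, bars are the SE) of Bcl6, Sh2d1a and the tested genes of 3 lists that are reported here in CD4 T cells and Tregs, filled where the edgeR adjusted p was under 0.05. In CD4 T cells Sh2d1a and Sostdc1 are filled right of 0 and Gzmb, Prdm1 and Ccr2 are filled left of it; in Tregs Bcl6 is filled at 2.37.

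Tregs gave a smaller comparison, with 23, 11 and 15 receptor-positive cells. Of 6713 genes 2 were higher (0.0298%) and 20 lower (0.298%). Bcl6 was 1 of the 2, beside the T cell receptor segment Trbv3, and stood at 85.2, 58.6 and 82.9 CPM in positive cells and 18.7, 13.8 and 8.21 CPM in negative cells. Every positive value was above every negative one, read from 13 UMIs in 8 positive cells (2.37 ± 0.58, edgeR adjusted p = 0.0418). Leaving out library 1, 2 or 3 gave 2.56, 2.48 and 2.01, with adjusted p of 0.203, 0.435 and 0.400, so the call rests on each library. Sh2d1a stood at 256, 508 and 265 CPM against 153, 201 and 184 CPM. Its arms did not overlap, as for 10.2% of genes tested, and it did not pass the test (0.78 ± 0.25, edgeR adjusted p = 0.316).

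The falls in Tregs included effector genes. Gzmb, the gene of granzyme B, fell by 2.67 ± 0.41, the granule protein gene Nkg7 by 1.24 ± 0.20 and the checkpoint receptor Lag3 by 1.86 ± 0.26. Lgals3 fell by 1.94 ± 0.35, Maf by 0.85 ± 0.18, Ccl5 by 0.82 ± 0.15 and Cst3 by 0.88 ± 0.21. Socs2, Ctla2a, Lamtor4, Ptms and Arl5a completed the largest falls, between -2.14 and -1.25. Of 20 tested follicular helper genes 0 rose and 1 fell (Maf), with a median of 0.11 against -0.13 over all genes. DESeq2 and limma with equal cells each called 0 genes (94 and 292 at an unadjusted p under 0.05).

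Whether Cxcr5 went with different changes in CD4 T cells and Tregs was tested by the interaction of receptor and class. Of 8238 genes, 6 differed (0.0728%), 4 with the higher effect in CD4 T cells (0.0486%) and 2 with the lower (0.0243%). For Bcl6 the effect in CD4 T cells minus that in Tregs was -1.78 ± 0.65 (edgeR adjusted p = 0.467), and for Sh2d1a it was 0.17 ± 0.28 (edgeR adjusted p = 0.969), so neither gene was shown to respond differently in the 2 classes.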

How the data were processed

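UMI counts of single CD45+ cells from the sciatic nerves of 3 libraries were analysed. The deposited counts are whole numbers per gene and cell, not scaled by the authors. The deposited percent of mitochondrial UMIs per cell and the class, cluster and library names, the authors' own, were read from their cell table. The build mm10, Seurat 4.0 and Cell Ranger 5.0.1 are named, per the submitters' processing notes; their roles are not given in the sources used here. All deposited cells were kept. Scrublet (scanpy 1.11.5) called 84 of 11640 cells doublets.

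UMIs were summed per class and library, given as CPM (per 1000000 UMIs), with mean and SD over libraries for classes with at least 20 cells in each. For shares of cells every cell was thinned to 1000 UMIs by the exact expectation, and shallower cells were left out. Within a class, cells with a UMI of Cxcl13 or Cxcr5 were set against cells without, as 1 sum per arm and library with at least 10 cells in each arm (5 in alternatives added after seeing the data: splits at 2 and at 10 UMIs, and without monocyte marker cells). Sums were tested with edgeR 4.0.16 (TMM, filterByExpr, quasi-likelihood test, library as a block, Benjamini-Hochberg adjustment, threshold 0.05). Both arms come from the same library: deviations from the arm means correlated at 0.46, 0.451 and 0.467 (macrophages), 0.442, 0.334 and 0.623 (CD4) and 0.341, 0.276 and 0.518 (Tregs) in libraries 1, 2 and 3. On simulated counts at the size of the macrophage comparison (5731 genes) 48 of 100 genes changed 2-fold and 98 of 100 changed 4-fold were recovered. For CD4 T cells (8448 genes) these were 76 and 99, and for Tregs (6263 genes) 44 and 79. The changed genes were drawn only from the more highly expressed ones, with a common dispersion for all genes. Recovery at levels as low as those of Bcl6 was therefore not measured. Alternatives used DESeq2 1.42.0, limma 3.58.1, R 4.3.3 and scipy 1.17.1.

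The 4 genes and 12 gene lists were chosen with earlier results of these data known. Named are the 4 genes, list genes that passed (up to 25 by adjusted p) or are needed for a small count, the 8 largest rises and falls outside the lists with 20 CPM in the higher arm and 1 direction in every library (without mitochondrial, ribosomal, predicted and antigen receptor genes), and the 5 genes of most alike pattern (log2(CPM + 1), at least 50 UMIs). A few list genes are counted with their lists but not reported here by name. Other list genes and Trbv3 were named after their values were seen.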

Additional observations from a re-analysis of the deposited data

Results flagged for a closer look

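Of the genes that differed in their Cxcr5 effect between CD4 T cells and Tregs, 4 fell under the rule for named genes, each by the interaction test of edgeR and each in the same direction in 3 of 3 libraries. The value is the log2 fold change in CD4 T cells minus that in Tregs. For Cd74 it was 1.96 ± 0.37 (adjusted p = 0.000643), from 1.55 in CD4 T cells and -0.36 in Tregs; B cell markers moved with Cd74 in CD4 T cells, and without the cells that held them Cd74 was at 0.01 there. For Gpx1, an antioxidant enzyme gene, it was 1.34 ± 0.31 (adjusted p = 0.0252), from 0.45 and -0.87. For S100a4, a calcium-binding protein gene, it was 1.15 ± 0.23 (adjusted p = 0.00193), from 0.29 and -0.80. For Ifngr1, a chain of the interferon gamma receptor, it was -1.22 ± 0.24 (adjusted p = 0.00166), from -1.34 and -0.07. None of the 4 kept its call under all 3 omissions of a library. Groups of 3 libraries were not searched for single outlying samples.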

How the results depend on the processing

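Without the replicate block, which pairs both arms of a library, 1 gene was higher and 1 lower in macrophages, 0 and 1 in CD4 T cells, and 0 and 0 in Tregs (185 unadjusted) and in their difference (276 unadjusted). DESeq2 called 41 higher and 37 lower in macrophages, 5 and 16 in CD4 T cells, 0 and 0 in Tregs and 0 and 1 for the difference. With equal cells in limma the counts were 0 and 0 in macrophages (472 unadjusted), 2 and 8 in CD4 T cells, 0 and 0 in Tregs and 0 and 0 for the difference (513 unadjusted). Thinned to 2000 UMIs, which left 2 libraries, they were 15 and 21 in macrophages and 3 and 13 in CD4 T cells. Leaving out each library in turn gave 0 to 215 higher and 0 to 164 lower in macrophages, 15 to 58 and 34 to 92 in CD4 T cells, 1 to 6 and 9 to 26 in Tregs, and 2 to 8 and 2 to 7 for the difference. In macrophages, a split at 2 UMIs gave 178 higher without library 3, which had 8 positive cells, and 132 higher with it (a minimum of 5 cells, added after seeing the data). Also without library 3, cells without T or B cell markers gave 178 higher. Cells without monocyte markers, added after seeing the data, gave 4 higher and 5 lower. CD4 cluster 0 alone gave 11 higher and 32 lower. Without a filter on low counts Tregs gave 1 higher and 51 lower, and without B cell marker cells 4 higher. The difference gave 8 and 4 without B cell marker cells, and 8 and 11 without cluster 5. The causes were not tested, beyond the fewer cells or libraries of those settings.

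Shares of cells moved with depth. At 2000 UMIs and unthinned, Cxcr5 was found in 25.9% and 40.7% of B cells, 2.22% and 3.10% of CD4 T cells and 2.14% and 3.75% of Tregs. Sh2d1a was found in 41.2% and 62.4% of CD8 T cells, 32.5% and 34.2% of CD4 T cells and 1.64% and 3.46% of B cells. Bcl6 was found in 7.06% and 26.1% of conventional dendritic cells and 5.43% and 7.33% of CD4 T cells. Unthinned, Cxcl13 was found in 1.96% of CD4 T cells and Cxcr5 in 0.545% of macrophages. Signs turned for Slamf7 in macrophages (limma, -0.52), Olfml3 (without monocyte marker cells, -0.082), Il10 (cluster 0, 0.88), Tnfsf11 (thinned, -0.29) and Fgfr1op (thinned, -0.16) in CD4 T cells, and for Bcl6, not called in any of these, there (thinned, -0.94) and in macrophages (limma -1.56, without library 2 -0.15). In CD4 T cells signs also turned for H2-Aa (limma -1.18, without B cell marker cells -1.27) and H2-Eb1 (limma -1.22, without B cell marker cells -0.47). Thinned tests in Tregs and of the difference, and CD4 cluster 6 alone, were not run, for too few cells.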

Other observations

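Other genes of organised lymphoid tissue were spread over several classes, over 3 libraries each. Ltb, a lymphotoxin gene, had means of 774 CPM in Tregs and 693 CPM in CD4 T cells, and Lta had 51.4 CPM in CD4 T cells. Their receptor gene, Ltbr, had 43.2 CPM in macrophages. Tnfsf11 had 208 CPM in CD4 T cells. Of the germinal centre list, Mef2b had 88 UMIs in B cells (11.9 CPM), while 69 UMIs of Gcsam were in conventional dendritic cells. Vcam1 had 535 UMIs in macrophages.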
